A study of Homo sapiens with 6 samples.

Results

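The genes described here encode the carrier that brings pyruvate into mitochondria and the enzyme complex that turns it into acetyl-CoA: MPC1, MPC2, PDHA1, PDHB, DLAT, PDK1, PDK2, PDK3, PDK4 and PDP1. They were chosen by gene symbol, and all 10 symbols were found among the 19223 symbols of the table, with 25 of its 45006 transcripts. Where a symbol has several transcripts, the one with the largest mean of all 6 libraries stands for the gene, and the others are described after it. The study sequenced RNA of LoVo, a colorectal adenocarcinoma cell line, to see how a tyrosine kinase inhibitor, DCC-2036 (rebastinib), changes gene expression. The 3 Control libraries came from cells kept with vehicle and without the drug, and the 3 DCC-2036 libraries from cells given 2.5 μM of it, both for 48 h by the sample labels, although a figure legend of the study gives a shorter time. The labels name DMEM with serum as the medium, whereas the methods of the study name another nutrient mix for LoVo. The cells grew in 6-well plates, and nothing says that the libraries of a group came from separate cultures, so the p-values measure the spread between these samples, which may be technical.

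Pyruvate made by glycolysis crosses the inner mitochondrial membrane through a carrier built from the MPC1 and MPC2 proteins. Inside, the pyruvate dehydrogenase complex links it to the citric acid cycle, with an E1 enzyme made of the PDHA1 and PDHB subunits and an E2 core made of DLAT. PDK kinases phosphorylate PDHA1 and slow the complex, and PDP phosphatases remove the phosphate, a switch that many tumour cells set so that pyruvate goes to lactate instead.

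The values are a normalized read signal per transcript and not counts, so the reads behind each library are unknown. Column totals of these values were 38997229, 39956227 and 40587145 in Control, against 43279603, 45957597 and 48023306 in DCC-2036. These totals run over all transcripts, so a read shared by transcripts of 1 gene can enter them more than once. Fold changes are given on the log2(value + 1) scale, which understates the change of genes with low values, and a gene was called at a limma adjusted p under 0.01. Of the 10 genes, 3 were called: MPC2 rose, and PDHB and PDK2 fell. Among all 12725 symbols tested, 41.9% were called, 19.2% as higher (2442) and 22.7% as lower (2887), so the 1 higher and 2 lower genes here do not exceed the background. The 3 values of one group did not overlap those of the other in 4 of the 10 genes (MPC2, PDHA1, PDHB and PDK2), against 71.1% of all symbols tested. Without Control 1, Control 2, Control 3 or DCC-2036 2 in turn, 968, 942, 965 or 929 symbols were higher and 1571, 1502, 1534 or 1650 lower, and without DCC-2036 1 or DCC-2036 3, 2717 or 2501 were higher and 3444 or 3198 lower. The median log2 fold change of the 10 genes was -0.08, beside -0.09 for all symbols tested. Of the called symbols, 45.8% were higher, and 32.7% when the libraries were scaled to equal totals, a scaling that moved the median of all symbols to -0.29. Relative to the median of all symbols, MPC2 lay at 0.75, PDHB at -0.90 and PDK2 at -1.50 on the log2 scale, distances that a scaling of whole libraries leaves nearly as they are by construction.

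**Figure D1:**
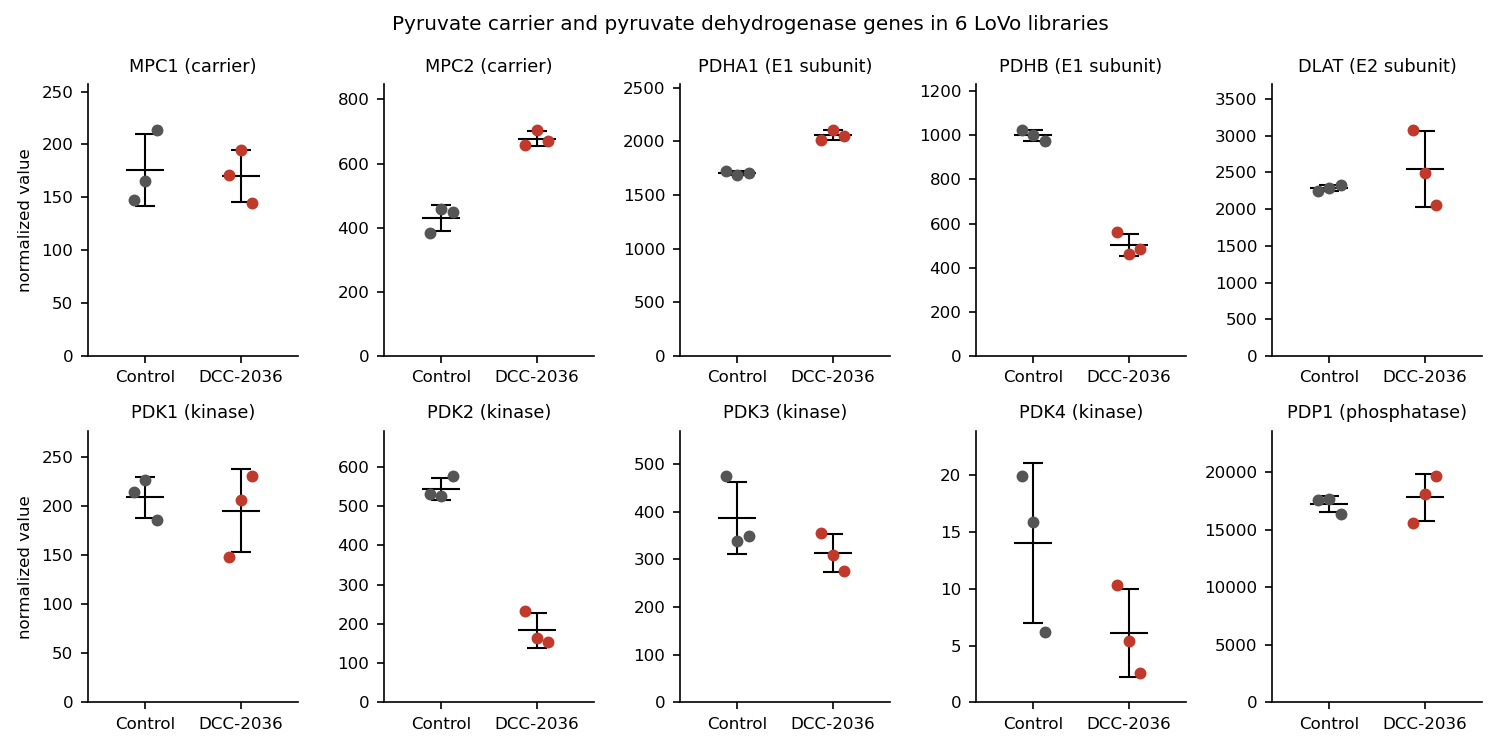
Normalized values of the 10 genes in each of the 6 libraries, with 1 point per library and, as bars, the mean and SD of each group (n = 3), on axes that start at 0. The groups are apart for MPC2, PDHA1, PDHB and PDK2, while those of the other 6 genes overlap.

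The sequences before the start sites of the 3 called genes are shown because these genes carry the changes above, and because the study places the transcription factor SP1, which binds the GC box GGGCGG, below the kinase it investigates. They come from RefSeq (GRCh38.p14) and are written 5′ to 3′ along the strand of the gene, with GGGCGG or its reverse complement CCGCCC in capitals. Stretches that lie in any annotated exon were left out. MPC2 (chromosome 1, 167916729 to 167937040, minus strand) is shown with chr1:167937070-167937152, the 83 bases next to its RefSeq start. PDHB (chromosome 3, 58427630 to 58433857, minus strand) is shown with chr3:58433858-58434082, 225 bases that end 25 bases before the start used. PDK2 (chromosome 17, 50094737 to 50112152, plus strand) is shown with chr17:50095101-50095274, 174 bases that end 76 bases before the start used. The starts used differ from the ends of the gene spans given. The PDHB stretch therefore adjoins its span, and the PDK2 stretch lies inside its span.
MPC2: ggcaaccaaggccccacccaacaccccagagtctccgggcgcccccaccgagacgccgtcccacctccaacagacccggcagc
PDHB: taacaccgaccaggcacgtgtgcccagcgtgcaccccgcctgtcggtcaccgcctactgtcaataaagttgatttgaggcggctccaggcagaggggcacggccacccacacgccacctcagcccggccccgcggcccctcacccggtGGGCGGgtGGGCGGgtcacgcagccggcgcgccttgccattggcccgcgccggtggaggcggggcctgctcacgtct
PDK2: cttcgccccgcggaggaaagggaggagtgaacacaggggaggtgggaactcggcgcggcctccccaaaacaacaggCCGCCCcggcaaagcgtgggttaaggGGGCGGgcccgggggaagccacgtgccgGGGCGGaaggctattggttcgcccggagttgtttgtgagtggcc

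The printed stretches hold 0 copies of the motif for MPC2, 2 for PDHB and 3 for PDK2, and 72.3%, 72.0% and 68.4% of their bases are G or C. In the full 250 bases before the start, MPC2 has 1 copy. Of the 9 members with a start site in the table, 8 have at least 1 copy in that window on either strand, from 1 in MPC2 to 7 in PDK1, and DLAT has 0. The motif is common: 42.6% of all 35116 start sites of the table and 63.9% of the 14520 start sites of symbols tested hold it. A match is a description of the letters, not a site or a cause.

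Of the carrier genes, MPC2 was called and MPC1 was not. MPC2 had values of 383, 459 and 449 in Control, against 659, 706 and 670 under DCC-2036. Every DCC-2036 library lay above every Control library, with a mean of 678 ± 24.6 (SD, n = 3) against 430.4 ± 41.7. Its log2 fold change was 0.66 with a standard error of 0.11 (limma adjusted p = 0.00316), a level 1.58 times that of Control. This call lay close to the limit. It was lost without Control 1, Control 2, Control 3 or DCC-2036 2 (limma adjusted p = 0.0137, 0.0126, 0.0135 and 0.0178) and with libraries scaled to equal totals (log2 fold change 0.46, adjusted p = 0.0108), within a range of 0.00128 to 0.0178 over its alternatives.

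MPC1, the other carrier subunit, which is often low in colorectal tumours, had values of 147, 166 and 214 in Control, against 171, 195 and 145 under DCC-2036. The groups overlapped, and the lowest and the highest value lay in different groups. The log2 fold change of -0.04 had a 95% interval of -0.47 to 0.39 (limma adjusted p = 0.859), and its sign turned with median of ratios scaling (0.04) and without Control 3 (0.11) or DCC-2036 3 (0.07). Within each library, the log2 difference of MPC2 minus MPC1 does not depend on how the libraries were scaled. It was 1.30 ± 0.21 (SD, n = 3) in Control and 2.00 ± 0.18 in DCC-2036, a difference of 0.70 with an exact permutation p of 0.1, two-sided, the smallest that 3 against 3 libraries can give. The ratio of the 2 values, not adjusted for transcript length, ranged from 2.10 to 2.77 in Control and from 3.63 to 4.63 in DCC-2036, without overlap.

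Of the E1 subunits, PDHB was called and PDHA1 was not. PDHB, the beta subunit, had values of 1025, 999 and 976 in Control, against 561, 463 and 484 under DCC-2036. All 3 treated libraries lay far below the Control libraries, which differed little among themselves. The mean fell from 1000 ± 24.7 (SD, n = 3) to 503 ± 51.3, which is 50.3% of Control, with a log2 fold change of -0.99, a standard error of 0.11 and a limma adjusted p of 0.000774. PDHB stayed called in each of the 6 fits that left out 1 library and under the 3 other scalings. In these bulk libraries, fewer cells of a kind and less RNA per cell cannot be told apart.

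PDHA1, the alpha subunit that the kinases phosphorylate, had values of 1719, 1686 and 1705 in Control, against 2011, 2107 and 2050 under DCC-2036. The DCC-2036 libraries were all above the Control libraries, but the gene did not pass the limit, which does not show that it is unchanged. Its log2 fold change was 0.27 with a standard error of 0.09 (limma adjusted p = 0.0359), and 0.07 with libraries scaled to equal totals. PDHA2, a close copy of PDHA1 known from testis, was listed at 0 in all 6 libraries. The log2 difference of PDHA1 minus PDHB within a library was 0.77 ± 0.03 (SD, n = 3) in Control and 2.03 ± 0.18 in DCC-2036, a difference of 1.27 (exact permutation test, two-sided, p = 0.1, again the smallest possible). In Control libraries the PDHA1 value was 1.68 to 1.75 times the PDHB value, and in DCC-2036 libraries 3.59 to 4.55 times. These ratios are not adjusted for transcript length, so they show a shift between groups and not which gene is more abundant. Per kilobase of transcript, PDHB lay above PDHA1 in Control (655 against 489) and below it in DCC-2036 (329 against 590). These 2 pairs of subunits were the only pairs compared, and their p-values adjusted over both are 0.1 as well.

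DLAT, which forms the E2 core and carries the acetyl group on its lipoyl arms, had values of 2248, 2284 and 2324 in Control, against 3083, 2498 and 2051 under DCC-2036. Its treated libraries spread widely, with 2 above and 1 below all Control libraries. The SD was 37.9 in Control and 518 in DCC-2036 (n = 3 each). The log2 fold change of 0.13 (95% interval -0.25 to 0.52, limma adjusted p = 0.486) became -0.06 with equal totals and -0.01 without DCC-2036 1.

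**Figure D2:**
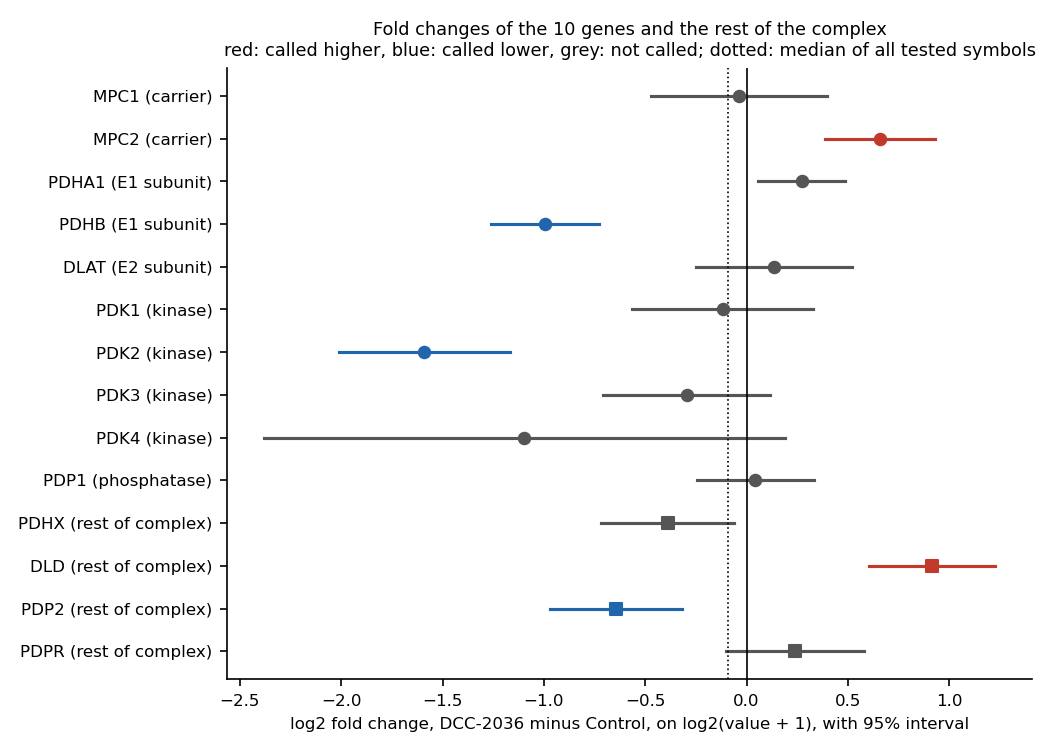
Log2 fold change (DCC-2036 minus Control, on log2(value + 1)) with its 95% interval from limma for the 10 genes (circles) and for the 4 tested genes of the rest of the complex (squares), coloured by call. MPC2 (0.66) and DLD (0.92) were called higher and PDHB (-0.99), PDK2 (-1.59) and PDP2 (-0.64) lower, and the dotted line is the median of all symbols tested (-0.09).

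Of the 4 kinase genes, PDK2 was the one called. PDK2, a kinase found in most tissues, had values of 531, 526 and 576 in Control, against 233, 164 and 153 under DCC-2036. The highest treated library held less than the lowest Control library by a wide margin. The mean fell from 544 ± 27.7 (SD, n = 3) to 183 ± 43.5, or 33.7% of Control, with a log2 fold change of -1.59 (standard error 0.17, limma adjusted p = 0.000744). By its log2 fold change PDK2 was the 908th lowest of the 12725 symbols tested. It stayed called in each of the 6 fits that left out 1 library and under the 3 other scalings.

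PDK1, known as a target of the hypoxia factor HIF-1, had values of 214, 227 and 186 in Control, against 148, 207 and 230.4 under DCC-2036. The groups overlapped, with the lowest and the highest value of all 6 libraries both among the treated ones. Its log2 fold change of -0.12 had a 95% interval of -0.56 to 0.33 (limma adjusted p = 0.601), and it was 0.07 without DCC-2036 1. PDK3 had values of 474, 339 and 349 in Control, against 355, 308 and 276 under DCC-2036. Control 1 stood above the other 5 libraries, and the highest treated value lay between Control values. The log2 fold change was -0.30 (95% interval -0.71 to 0.12, limma adjusted p = 0.173), and -0.14 without Control 1.

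PDK4, the kinase known to rise in fasting and with PPAR activity, was near the lower end of what was tested. Its values were 19.9, 15.9 and 6.22 in Control, against 10.3, 5.44 and 2.58 in DCC-2036. The 2 groups overlapped, and the values within each group differed several-fold. The log2 fold change was -1.10 with a wide 95% interval of -2.38 to 0.19 (limma adjusted p = 0.117), and it was -0.68 without DCC-2036 3.

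Levels of different genes can be compared only per length, here as value per kilobase of the kept transcript, with lengths from GENCODE 29 that approximate the RefSeq transcripts. Summed over the 4 kinases, the value per kilobase was 548, 483 and 473 in Control, against 353, 346.0 and 341 in DCC-2036. PDK2 made up 28.2%, 31.6% and 35.4% of this sum in Control, against 19.2%, 13.7% and 13.0% in DCC-2036. Every treated library thus had a smaller PDK2 share than every Control library. PDK3 held 45.0%, 36.5% and 38.3% in Control, against 52.3%, 46.4% and 42.1% in DCC-2036, and PDK1 25.8%, 31.0% and 25.9% against 27.7%, 39.4% and 44.6%. PDK4 stayed at or under 1.01% in each library. With the longer second transcript of PDK1, the PDK1 shares would be smaller and those of the other kinases larger. Shares of a sum move together when 1 kinase falls, and they were not tested.

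**Figure D3:**
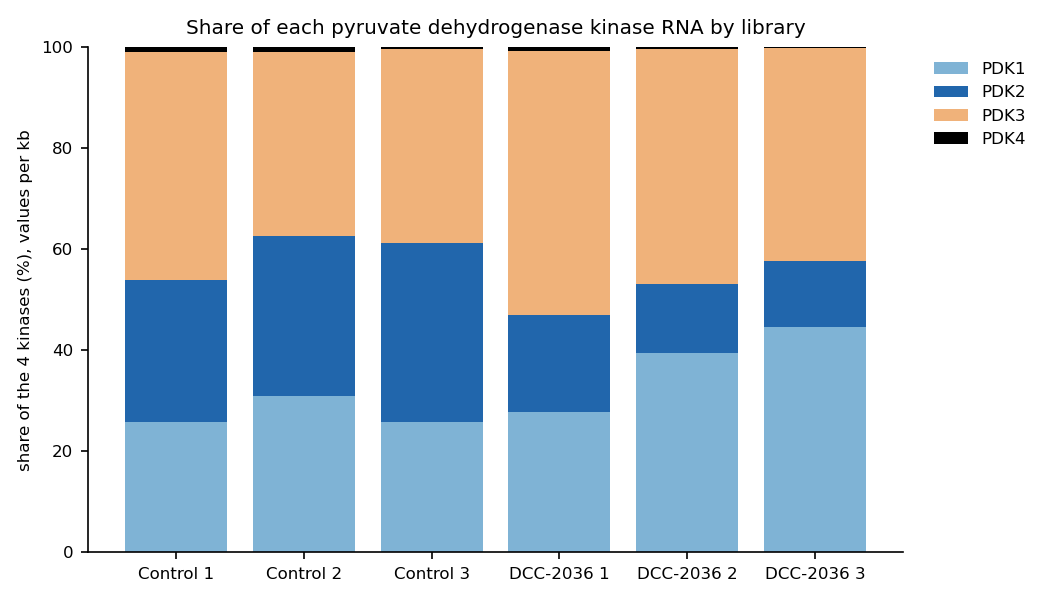
Share of each of the 4 pyruvate dehydrogenase kinases (%) in their summed value per kilobase, with 1 stacked bar per library. The PDK2 share is 28.2% to 35.4% in Control and 13.0% to 19.2% in DCC-2036, and PDK4 is barely visible at 1.01% or less.

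PDP1, the phosphatase subunit that reactivates E1, was the most abundant of the 10 genes by far. Its values were 17577, 17642 and 16384 in Control, against 15620.5, 18143 and 19642 in DCC-2036. Treated libraries lay on both sides of the Control libraries. The log2 fold change was 0.04 (95% interval -0.24 to 0.33, limma adjusted p = 0.761), with -0.15 under equal totals and -0.03 without DCC-2036 3. Per kilobase, PDP1 stood at 4016 over all 6 libraries, the 280th level among tested symbols with a known length.

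The other members followed at much lower levels per kilobase. MPC2 had 694, although its second transcript, of nearly the same value but 2177 bases long, would give 254. DLAT had 542, PDHA1 540 and PDHB 492 over all 6 libraries, but their order differed between the groups. In Control, PDHB had 655, above MPC2 (539), DLAT (513) and PDHA1 (489). In DCC-2036, PDHB had 329, below MPC2 (849.5), PDHA1 (590) and DLAT (571). These differences were not tested. Over all 6 libraries, PDK3 had 182, MPC1 145, PDK1 133, PDK2 106 and PDK4 2.81. The second PDK1 transcript, of nearly the same value but 2990 bases long, would give 66.8, below PDK2, so the order of these kinases depends on the transcript. With the kept transcripts it also differed between the groups, since PDK2 had 158 per kilobase in Control, above the 138 of PDK1, and 53.3 in DCC-2036, below the 129 of PDK1.

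The 25 transcripts add detail to these genes. Transcripts of 1 gene share most of their exons and therefore reads, so they do not count as independent measurements. In a limma fit with all 32323 transcripts that passed the same filter, 2 of the 25 were called higher (both of MPC2) and 7 lower (all 3 of PDHB and all 4 of PDK2), beside 19.7% and 22.4% of all transcripts. The second transcripts of MPC1, MPC2 and PDK1 had means within 2% of the kept ones in both groups. So did 3 of the 4 PDHA1 transcripts, while the shortest one, with 10 exons against 11 or 12, stood at 81.3% of the kept transcript in Control and 83.0% in DCC-2036. DLAT and PDK4 have 1 transcript each, and the 4 PDP1 transcripts lay between 94.3% and 100% of the kept one.

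PDHB and PDK2 fell in each transcript. The log2 fold changes of the PDHB transcripts were -0.99, -1.03 and -0.97, although their Control means differed from 682 to 1000. For PDK2, the 2 transcripts with a shorter coding part (1029 bases, against 1221 in the kept one) had log2 fold changes of -1.78 each, beside -1.59 for the kept transcript. The fourth PDK2 transcript, which has no match in GENCODE 29, had values of 134, 121 and 123 in Control, against 85.0, 65.1 and 69.3 under DCC-2036, a log2 fold change of -0.78 (limma adjusted p = 0.00273). It thus went from 23.1% of the kept transcript's level in Control to 39.9% in DCC-2036. Whether the transcripts differed from each other in their change was not tested.

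PDK3 was the gene whose transcripts lay on opposite sides of 0. The kept transcript had a log2 fold change of -0.30, while the other one, with 11 exons against 12, had values of 123, 104 and 127 in Control, against 139, 136 and 139.5 under DCC-2036. Those 2 groups of values did not overlap, but the transcript was not called (log2 fold change 0.23, limma adjusted p = 0.112). The level of this second transcript was 30.5% of the kept transcript in Control and 44.2% in DCC-2036. With all transcripts of the gene summed, PDK3 had a log2 fold change of -0.15 (limma adjusted p = 0.391), but such a sum can count shared reads more than once.

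Some of the genes overlap others on the opposite strand, and the sources used here do not say whether reads were counted by strand. MPC2 overlaps DCAF6, whose mean was 868 in Control and 771 in DCC-2036 (log2 fold change -0.18, limma adjusted p = 0.231, not called). PDK2 overlaps SAMD14, at 17.6 and 18.7, and PDHA1 overlaps MAP3K15, at 87.5 and 74.2. DLAT overlaps PIH1D2, which fell from 28.6 to 12.1 (log2 fold change -1.19, limma adjusted p = 0.00189). PDHB, PDK1 and PDK2 also overlap antisense RNAs that have no value here. How far such reads enter the values of the 10 genes was not tested.

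The rest of the complex comprises PDHX, DLD, PDP2, PDPR and PDHA2. Of the 4 genes tested, 1 was called higher and 1 lower, beside 19.2% and 22.7% of all symbols, with a median log2 fold change of -0.08. DLD, the E3 enzyme that reoxidises the lipoyl arms and is shared with other complexes, had values of 2185, 2496 and 2233 in Control, against 3835, 4319 and 4940.0 under DCC-2036. It rose in all 3 treated libraries, with a log2 fold change of 0.92 and a standard error of 0.13 (limma adjusted p = 0.00167), and its call was lost without Control 1 or Control 3 (limma adjusted p = 0.0102 and 0.0105). PDP2, the other phosphatase, fell from 732 ± 39.8 (SD, n = 3) to 471 ± 71.9, a log2 fold change of -0.64 (limma adjusted p = 0.00697). That call was lost without Control 1, Control 2, Control 3, DCC-2036 2 or DCC-2036 3 (limma adjusted p = 0.0234, 0.0330, 0.0268, 0.0304 and 0.0133). PDHX, which holds DLD in the core, had values of 786, 769 and 757 in Control, against 666, 622 and 491 under DCC-2036, groups without overlap that did not pass the limit (log2 fold change -0.39, limma adjusted p = 0.0449). PDPR, the regulatory subunit of the phosphatase, had 1592, 1309 and 1345 against 1769, 1822 and 1429 (log2 fold change 0.24, limma adjusted p = 0.182). PDPR has a near-identical copy in the genome, and how reads were divided between them is not given in the sources used here.

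Related dehydrogenases for other 2-oxoacids share the design of the complex and, for the most part, DLD. Of 9 tested genes, 1 was called higher and 3 lower, beside 19.2% and 22.7% of all symbols, with a median log2 fold change of -0.23. BCKDK, the kinase of the branched-chain complex and a relative of the PDK genes, fell from 1149 ± 50.6 (SD, n = 3) to 376 ± 97.0, a log2 fold change of -1.64 (limma adjusted p = 0.000811). OGDH, the E1 enzyme of the 2-oxoglutarate complex, fell by 1.51 (limma adjusted p = 0.00114) and DHTKD1, its homologue for 2-oxoadipate, by 1.27 (limma adjusted p = 0.00102). DLST, the E2 core of the 2-oxoglutarate complex and the most abundant gene of the list per kilobase, rose by 0.76 (limma adjusted p = 0.00159). The 3 lower genes stayed called in all 6 fits that left out 1 library, whereas DLST was lost without Control 1, Control 2 or DCC-2036 2 (limma adjusted p = 0.0101, 0.0101 and 0.0103).

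The citric acid cycle takes up the acetyl-CoA that the complex makes. Of its 15 enzyme genes, all tested, 5 were called higher and 0 lower, beside 19.2% and 22.7% of all symbols, and the median log2 fold change was 0.33. At an unadjusted limma p under 0.05, 10 were higher and 0 lower, beside 30.5% and 36.1% of all symbols. SUCLG1, a subunit of succinyl-CoA ligase, rose from 1039 ± 91.4 (SD, n = 3) to 2070 ± 322, a log2 fold change of 0.99 (limma adjusted p = 0.00198). MDH2, the most abundant per kilobase, rose by 0.69 (limma adjusted p = 0.00448), and SDHB had the smallest called change, 0.52 (limma adjusted p = 0.00811). The count of called genes differed between settings. With no filter on low values it was 1 higher gene, beside 1749 of 16667 symbols. With equal totals 2 genes, SUCLG1 and MDH2, were higher and 1, IDH2, was lower, beside 1669 and 3442 of 12737 symbols. The list median was then 0.14, beside -0.29 for all symbols. Without Control 1, Control 2 or DCC-2036 2 the count of higher genes was 0, with limma adjusted p of 0.0108, 0.0105 and 0.0104 for SUCLG1, 0.0209, 0.0207 and 0.0216 for MDH2 and 0.0360, 0.0256 and 0.0379 for SDHB. Without Control 3 the count was 1, as MDH2 (limma adjusted p = 0.0139) and SDHB (0.0322) were lost, and SDHB was lost without DCC-2036 3 too (0.0134).

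Other routes of pyruvate were tested through 13 genes, of which 4 were called higher and 2 lower, beside 19.2% and 22.7% of all symbols (median log2 fold change 0.12). GPT, an alanine aminotransferase, rose from low values of 9.35, 10.5 and 13.9 to 56.2, 81.2 and 107, a log2 fold change of 2.72 (limma adjusted p = 0.000485). It passed the filter on low values only with the help of the DCC-2036 libraries. The filter of 10 in every library left GPT out, with 3 of 12 tested genes higher and 2 lower, beside 2471 and 2913 of 11846 symbols. SLC16A1, a transporter of lactate and pyruvate, rose by 1.44 (limma adjusted p = 0.00133), while the log2 fold changes of the transporters SLC16A3 and SLC16A7 were -1.45 and -1.62 (limma adjusted p = 0.00142 and 0.00821). PCK2 and GPT2 were also called higher. PKM, the pyruvate kinase that makes the substrate and the most abundant gene of the list, had values of 49624, 52594 and 57693 in Control, against 65611, 73775 and 85728 under DCC-2036, and did not pass the limit (log2 fold change 0.49, limma adjusted p = 0.0190), though it did without DCC-2036 1 (0.00908). LDHA and LDHB, which turn pyruvate to lactate and back, had log2 fold changes of -0.17 and 0.16 (limma adjusted p = 0.170 and 0.257), with -0.04 for LDHB under equal totals. Without Control 1, Control 2, Control 3 or DCC-2036 2, 2 genes were higher and 1 lower, and without DCC-2036 3 the count of lower genes was also 1. The genes lost were SLC16A7 (limma adjusted p = 0.0332, 0.0265, 0.0205 and 0.0312 in the order of these libraries, 0.0154 without DCC-2036 3), PCK2 (0.0239, 0.0211, 0.0171 and 0.0142) and GPT2 (0.0302, 0.0329, 0.0268 and 0.0316, and 0.0112 without DCC-2036 1).

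**Figure D4:**
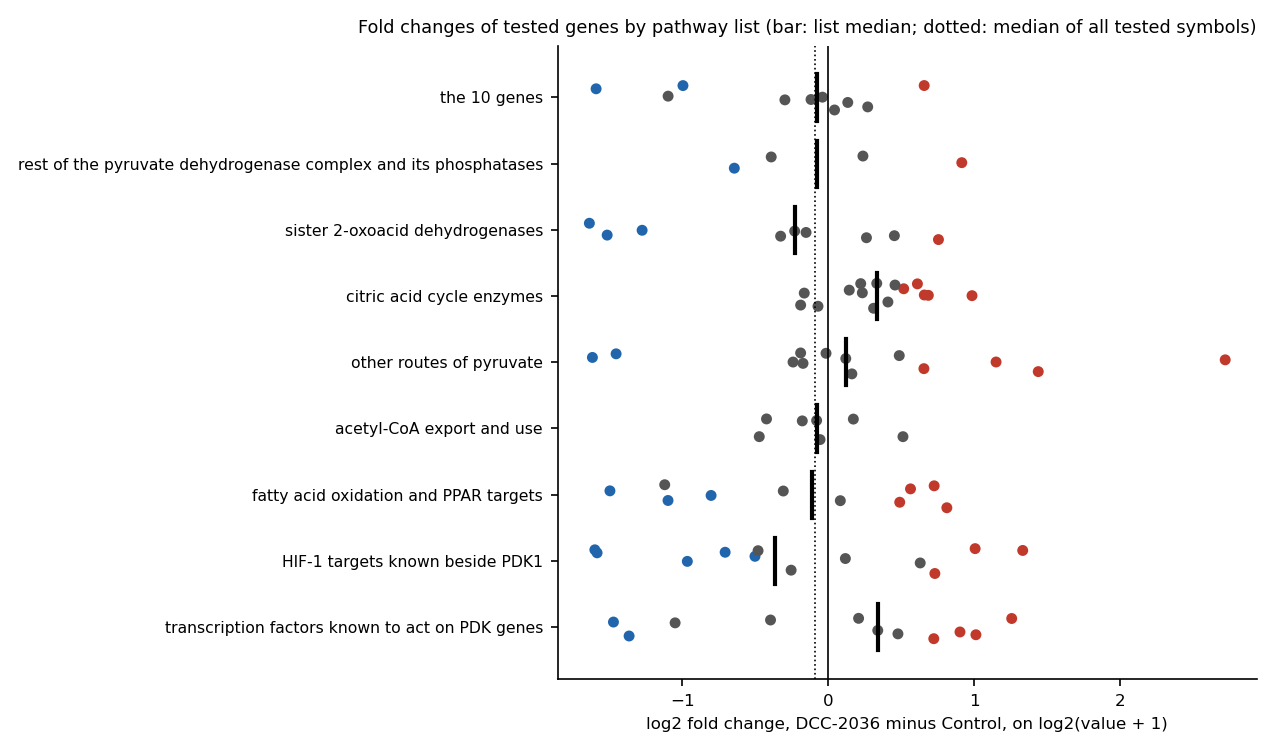
Log2 fold change (DCC-2036 minus Control, on log2(value + 1)) of the tested genes of 8 pathway lists, 1 point per gene, spread vertically for visibility, in red or blue where called higher or lower. Black bars are list medians, from -0.37 for known HIF-1 targets to 0.34 for transcription factors, and the dotted line is the median of all symbols tested (-0.09).

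The label of the cells was checked against marker genes. Among 12 colon epithelial markers, 7 were tested, with 2 called higher and 1 lower, beside 19.2% and 22.7% of all symbols. KRT8, the most abundant, had values of 55603, 60058 and 64134 in Control, against 92924, 106391 and 125395 under DCC-2036 (log2 fold change 0.84, limma adjusted p = 0.00287). CDH1 rose by 1.10 (limma adjusted p = 0.000354), and KRT20, a marker of mature colon cells with low values here, fell by 1.15 (limma adjusted p = 0.00427). EPCAM, KRT18, KRT19 and CDX2 were present in all libraries and not called. CDX1 was listed at 0 in all 6 libraries, and VIL1, LGALS4, CEACAM5 and GPA33 stayed under 10. Summed over the 12 markers, the values were 104483, 108194 and 115005 in Control, against 148345, 163494 and 188453 in DCC-2036. Without Control 1, Control 2, Control 3 or DCC-2036 2, 1 marker was higher, since KRT8 was lost (limma adjusted p = 0.0154, 0.0149, 0.0116 and 0.0140), and KRT20 was lost without Control 1 or Control 3 (0.0173 and 0.0182).

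Of 11 markers of blood, stromal and endothelial cells, 5 were tested and 0 were called by limma, beside 41.9% of all symbols. At an unadjusted limma p under 0.05 there were 2 (ACTA2 and VWF, both at low values), beside 66.6% of all symbols. ACTA2 had 24.6, 13.85 and 16.5 in Control, against 6.28, 8.70 and 14.9 in DCC-2036, and VWF 10.4, 4.15 and 13.0 against 33.0, 15.3 and 15.6. Each passed the filter on low values only with the help of the group where it was higher, so these 2 are no support for a change. PTPRC and MS4A1 were listed at 0 in all libraries, and CD3E reached at most 2.29. LYZ, PDGFRB and PECAM1, also below the filter, had means of 6.04, 4.55 and 0.64 in Control, against 15.5, 11.25 and 2.90 in DCC-2036. Of these, only PDGFRB had groups without overlap. COL3A1 had means of 14.14 and 23.85, with overlap, and was not called. The most abundant of the 11 markers were COL1A1, at 380, 393 and 353 in Control, against 429, 420.1 and 520.2 in DCC-2036, and CD68, at 245 ± 18.8 (SD, n = 3) and 240.4 ± 37.3. The sums of the 11 values were 676, 692 and 653 in Control, against 755, 717 and 878 in DCC-2036, without overlap, and the part of such RNA in the results above was not tested.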

How the data were processed

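RNA of 3 Control and 3 DCC-2036 libraries of LoVo cells was analysed, with groups taken from the sample titles. The authors deposited 1 table of RefSeq transcripts with a normalized signal per library, which is not in whole numbers. Aligner, counter and genome build are not given in the sources used here, and the depth of each library is unknown. The deposited log2 fold changes, p-values and q-values of the authors were not used. For each symbol the transcript with the highest mean was kept. Symbols that reached a value of 10 or more in 3 or more libraries (12725 of 19223) were tested on log2(value + 1) with limma 3.58.1 in R 4.3.3, two-sided, without covariates, with Benjamini-Hochberg adjustment over all symbols tested. A gene was called at an adjusted p under 0.01. The code was tested on simulated data. Exact permutation tests ran in Python 3.11.15 with pandas 2.3.3, numpy 2.4.6 and scipy 1.17.1, and plots in matplotlib 3.10.9. Transcript lengths and overlaps came from GENCODE 29. Further columns with a signal per library number 0.

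The members and the lists were chosen with earlier results of these data known. All 10 members are named, with every gene of the rest of the complex and, of each other list described, the called genes with the highest and the lowest log2 fold change and the most abundant tested gene per kilobase. Other genes named from the lists were chosen after their values were seen. Alternatives were 3 scalings, the omission of each library, 2 other filters, a replicate block, a pseudocount of 0.1, other limits for a call, limma with a trend, transcripts summed and each transcript tested on its own.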

Additional observations from a re-analysis of the deposited data

How the results depend on the processing

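PDK2 stayed called lower under every alternative, and PDHB under all but the one that asks for an absolute log2 fold change of 1 or more. MPC2 kept its direction in all alternatives and lost its call in 7 of them. Of the members, 0 were called higher with equal totals, with the replicate block (MPC2 adjusted p = 0.0118, limma) and with that limit, and 2 with an adjusted p under 0.05, where PDHA1 joined. With that limit, 1 member was lower. Leaving out 1 library gave 0 to 1 higher and 2 lower members. Signs turned only for members that were not called. MPC1 was at 0.042 with median of ratios (-0.16 to 0.11 with libraries left out), DLAT at -0.0635 with equal totals and -0.0138 without DCC-2036 1 (range with libraries left out -0.01 to 0.28), PDP1 at -0.15 with equal totals and -0.0303 without DCC-2036 3 (range -0.03 to 0.14), and PDK1, at 0.0671 without DCC-2036 1, ranged from -0.25 to 0.07 with libraries left out. Over all symbols, 2442 higher and 2887 lower became 1202 and 1909 with the replicate block, 929 to 2717 and 1502 to 3444 with 1 library left out, and 6379 and 7250 with every transcript tested on its own. An absolute log2 fold change of 1 or more left 944 higher and 1930 lower symbols. Equal totals gave 1669 higher and 3442 lower of 12737, and an adjusted p under 0.05 gave 3630 and 4290. Fewer samples, fewer residual degrees of freedom or more transcripts tested change such counts by themselves, and the cause was not tested. Samples with the same replicate number did not deviate together over the symbols tested (correlations 0.081, -0.035 and -0.003). That does not settle whether the numbers pair them, which the sources used here do not say. With the replicate block, 2 citric acid cycle genes were higher, 1 gene of fatty acid oxidation and PPAR targets was higher and 2 lower, 2 HIF-1 targets were lower, and 0 genes of the rest of the complex and 0 colon markers were lower. With no filter on low values, 1749 of all 16667 symbols were higher and 2154 lower. In that fit, 2 genes of other pyruvate routes were higher and 1 lower, and 2 HIF-1 targets were higher and 3 lower. It gave 0 lower genes of the rest of the complex, 0 lower colon markers and 1 higher marker of other cells. The block called PDK4 lower (adjusted p = 0.00724, limma), from values under 20. PDK4 could not be given for the filter of 10 in every library, which it does not pass. Both within-library differences kept their direction under each alternative run for them. Depth is unknown, so the reads behind low values such as those of PDK4 are unknown too.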

Other observations

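Acetyl-CoA export and use, the steps that carry acetyl units to fat synthesis, had 0 of 7 tested genes called by limma, beside 41.9% of all symbols, and a median log2 fold change of -0.08. At an unadjusted limma p under 0.05 there were 2 (ACACB and ACAT2), beside 66.6% of all symbols. FASN, the fatty acid synthase and the most abundant gene of the list per kilobase, had values of 30956, 28128 and 31332 in Control, against 31817, 29347 and 26044 under DCC-2036. Without DCC-2036 1, ACAT2 was called lower, and without DCC-2036 3, ACACB higher, and equal totals made ACAT2 lower. Genes of fatty acid oxidation and PPAR targets, which include the known company of PDK4, split in both directions, with 4 of 10 tested genes called higher and 3 lower, beside 19.2% and 22.7% of all symbols tested (median log2 fold change -0.11). ACADM, the medium-chain acyl-CoA dehydrogenase, fell from 674 ± 37.4 (SD, n = 3) to 239 ± 17.6, a log2 fold change of -1.50 (limma adjusted p = 0.000257). ACADVL, its very-long-chain relative and the most abundant of the list per kilobase, rose by 0.81 (limma adjusted p = 0.00619). With equal totals 2 were higher and 3 lower, beside 1669 and 3442 of 12737 symbols. No filter on low values gave 2 and 2, beside 1749 and 2154 of 16667 symbols. Without Control 1, Control 3 or DCC-2036 2 the list had 0 higher genes, and without Control 2 it had 1. ACADVL was lost in all 4 of these fits (limma adjusted p = 0.0269, 0.0218, 0.0231 and 0.0259, in this order).

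Known HIF-1 targets beside PDK1 also split, with 3 of 12 called higher and 5 lower, beside 19.2% and 22.7% of all symbols (median log2 fold change -0.37). SLC2A1, the glucose transporter and the most abundant of the list per kilobase, rose from 4042 ± 303 (SD, n = 3) to 10178 ± 544, a log2 fold change of 1.33 (limma adjusted p = 0.000315), and ANKRD37 had the lowest, -1.60 (limma adjusted p = 0.00298). Without Control 1, Control 2 or Control 3 the lower count was 1, ANKRD37 being lost as well (limma adjusted p = 0.0132, 0.0139 and 0.0149), and without DCC-2036 2 it was 3. Among 11 tested transcription factors known to act on PDK genes, 4 were called higher and 2 lower, against the same shares (median log2 fold change 0.34). HIF1A rose from 3597 ± 184 (SD, n = 3) to 8742 ± 1951, a log2 fold change of 1.26 (limma adjusted p = 0.00156), and E2F1 fell by 1.47 (limma adjusted p = 0.00161). MYC, the most abundant per kilobase, had values of 4483, 4499 and 4813 in Control, against 4246, 5601 and 8283 under DCC-2036 and was not called. Without Control 2 the count of higher factors was 2.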
